A study of Mus musculus with 22 samples.

Results

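Longer CRE loops that structural loops cut across were examined here, in G1E-ER4 mouse erythroblasts leaving mitosis with and without CTCF. Promoters and enhancers are together called cis-regulatory elements (CREs). A CRE loop joins 2 anchors that both hold such elements, with CTCF and cohesin together at no more than 1 of them, and a structural loop has CTCF and cohesin at both anchors and CREs at no more than 1. Taken were the CRE loops above 200 kb and up to 500 kb in size that at least 1 structural loop crossed, with the midpoint of an anchor of the structural loop between the CRE anchors and that of its partner beyond them. CRE loops lying wholly within a structural loop, here called encompassed, were left out. This gave 565 loops of 1343 CRE loops of that size (42.07%), of 4642 CRE loops of any size (12.2%) and of 16370 loops in all (3.45%). No measured strength entered the rule, only loop categories, sizes and positions, although the loops themselves were called from the same maps.

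Loops of this kind are thought to arise in different ways. Cohesin extrudes chromatin into loops until it meets CTCF bound to DNA, above all where a pair of CTCF sites point towards each other, and such paired sites make the structural loops and many domain boundaries. Contacts between promoters and enhancers can form without CTCF, and they return quickly when cells leave mitosis, when chromatin regains the loops and domains that it loses in prometaphase. A CRE loop with a structural anchor between its ends has to reach across that anchor.

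G1E-ER4 derives from G1E, a proerythroblast line that lacks GATA1, and in the engineered cells used here both CTCF alleles carry a C-terminal AID-mCherry fusion, so that auxin together with a transduced OsTiR removes the protein. All cells, controls included, carried these alleles and were arrested with 200 ng/ml nocodazole, and 8 conditions were compared, with (+auxin) and without (-auxin) 1 mM auxin at prometaphase (0 min after release), ana/telophase (30 min), early-G1 (60 min) and mid-G1 (at 120 min). Where 4 values of a loop follow each other, they stand in this order of stages. The sample protocol gives a slightly shorter release for ana/telophase than the sample labels do. Ana/telophase cells were transduced separately from the cells of the other 3 stages, with a construct whose GFP is degraded in mitosis in place of plain GFP, so stage and construct cannot be told apart in comparisons of ana/telophase with the other stages. In situ Hi-C, which ligates DNA ends that lie close together in the nucleus, was performed on 18 libraries, with 3 replicates per condition in mid-G1 and 2 at the other stages. Hi-C gives no expression, so the erythroid label was not checked against marker genes.

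The authors merged the replicates before measuring loops. Each loop therefore has 1 strength per condition, the ratio of observed to locally expected contacts around its summit, and 1 marks no enrichment. There is no replicate error and no test between treatments. Changes are given as log2(+auxin / -auxin) without a pseudocount, and medians carry the SD between chromosome medians, a measure of spread over the genome and not between cultures. Shares carry exact 95% Clopper-Pearson intervals, which cover counting error only and treat neighbouring loops as independent. The contacts behind each value, and so its depth, are unknown from the tables used.

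The crossed loops lie on all 20 chromosomes, from 8 on chromosome X to 69 on chromosome 1. Chromosome 3, with 39 of them, was left out of the paper's compartment analysis because of a translocation. It was kept here, and without it the median mid-G1 log2 change of the crossed loops was 0.14. Their median size is 325 kb, with quartiles of 260 and 420 kb. Summits are 10 kb wide for 383 of them and 25 kb wide for 182. They are crossed by 952 distinct structural loops, 19.7% of that category, in 1274 pairs. Of the crossed loops, 242 meet 1 structural loop, 225 meet 2 to 3 and 98 meet 4 to 10. The structural loop straddles the upstream CRE anchor alone in 218 cases and the downstream anchor alone in 216, and in 131 cases structural loops straddle each of them. Neighbouring CRE loops share structural loops, so the 565 form 378 groups, of which 260 hold a single loop and the largest holds 6. At 10 loops a crossing anchor overlaps the bin of the CRE anchor that it passes, so that an interior position is not resolved there.

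A minority of the structural anchors inside these loops held a match to the CTCF core consensus, more often pointing into the structural loop than away from it. The consensus, 14 bases long, was searched on both strands of the NCBIM37 (mm9) genome, and it was chosen after its share at such anchors had been seen. Of 628 distinct 10 kb structural anchors inside the CRE loops, 266 held a match (42.4%, 95% interval 38.5 to 46.3%). The match pointed into the structural loop at 221 of them (35.2%) and away from it at 66 (10.5%), where some anchors held matches of both kinds. Over all 255583 bins of 10 kb in the genome, 8.13% held a match, and 4.28% held one on the plus strand. All structural anchors gave 38.2% for any match and 31.2% for an inward match, so the interior anchors are close to the category as a whole. At the CRE anchors of the crossed loops, 15.9% of 712 bins held a match (13.3 to 18.8%), against 17.6% of 517 bins (14.4 to 21.2%) at CRE loops of the same size that are neither crossed nor encompassed.

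Some of the inward sites at crossing anchors of loops described below, picked by hand as examples after their values were seen, are printed from mm9, 5′ to 3′ on the strand that points into the structural loop, so that the sequence at the structural anchor each CRE loop spans can be read. Capitals mark the match to the CTCF core consensus, and a match is a description of the sequence, not a measured binding site.
Foxo3-Snx3, site 1 (chr10:42015014-42015043, minus strand): cctcccagCCACAAGATGGCAGgagaagat
Foxo3-Snx3, site 2 (chr10:42017093-42017122, minus strand): cctgcataCCAGAAGAGGGCACcagatctc
Foxo3-Snx3, site 3 (chr10:42017951-42017980, minus strand): cctgcaggCCACAAGAGGGCAGcagggcag
Srp72-Rest (chr5:77646454-77646483, minus strand): cagagtggCCACTAGAGGGCACcagatccc
Plxnc1-Cradd (chr10:94427927-94427956, minus strand): agaaatggCCAGAAGAGGGCACtagaacac
Pex7-Bclaf1 (chr10:19613973-19614002, minus strand): cttctttaCCAGTAGGTGGCGCcgtcaact
Mef2d (chr3:87891764-87891793, plus strand): cctacatgCCAGAAGAGGGCACcagactgc
Gtf3a-Pan3 (chr5:148143293-148143322, plus strand): tgcagtggCCAGAAGAGGGCGCtggagctc
Acbd6 (chr1:157384572-157384601, minus strand): catactgaCCAGAAGATGGCAGcatagagc
Ets2-Psmg1 (chr16:96167191-96167220, minus strand): catcttgtCCTCAAGGTGGCGCtagatgtg

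Without CTCF depletion, the crossing loops and the crossed loops developed differently after mitosis. The 952 crossing structural loops had median strengths of 1.06, 1.73, 2.11 and 2.41 at the 4 stages. With auxin they had 1.00, 1.17, 1.23 and 1.27, a median mid-G1 log2 change of -0.93 (SD 0.09 over chromosomes), and 96.6% were called in -auxin cells only. These values are near those of the 3885 structural loops that cross no such CRE loop, with a change of -0.85 (SD 0.11) and 94.2% called without auxin alone. The 565 CRE loops that they cross had 1.15, 1.58, 1.70 and 1.58 without auxin, so that their median was highest in early-G1. With auxin their medians were 1.16, 1.63, 1.84 and 1.68.

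The crossed loops were thus, in the median, stronger with auxin at the 3 post-mitotic stages. From prometaphase to mid-G1 the median log2 changes were 0.01 (SD 0.12 over chromosomes), 0.08 (SD 0.08), 0.14 (SD 0.09) and 0.14 (SD 0.08). In mid-G1, 362 of 565 (64.1%, 60.0 to 68.0%) were stronger with auxin, with single changes from -1.94 to 1.55. The prometaphase value was smaller than its spread over chromosomes. Among the 407 CRE loops of the same size that were neither crossed nor encompassed, the medians were -0.04, -0.01, 0.01 and -0.01 (SD 0.13 in mid-G1), and 47.9% were stronger in mid-G1. The difference of the medians, crossed minus uncrossed, was 0.05, 0.09, 0.13 and 0.15, and in mid-G1 the SD of this difference between chromosomes was as large (0.15). Across the 16369 loops with a mid-G1 ratio, 1 loop of the table having none, the median was -0.38. Measured against that median, the crossed loops had a change of 0.52 and 89.0% of them lay above it, and the encompassed loops described next also come to lie above 0, so directions near 0 depend on the scale while the order of the classes does not.

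**Figure D1:**
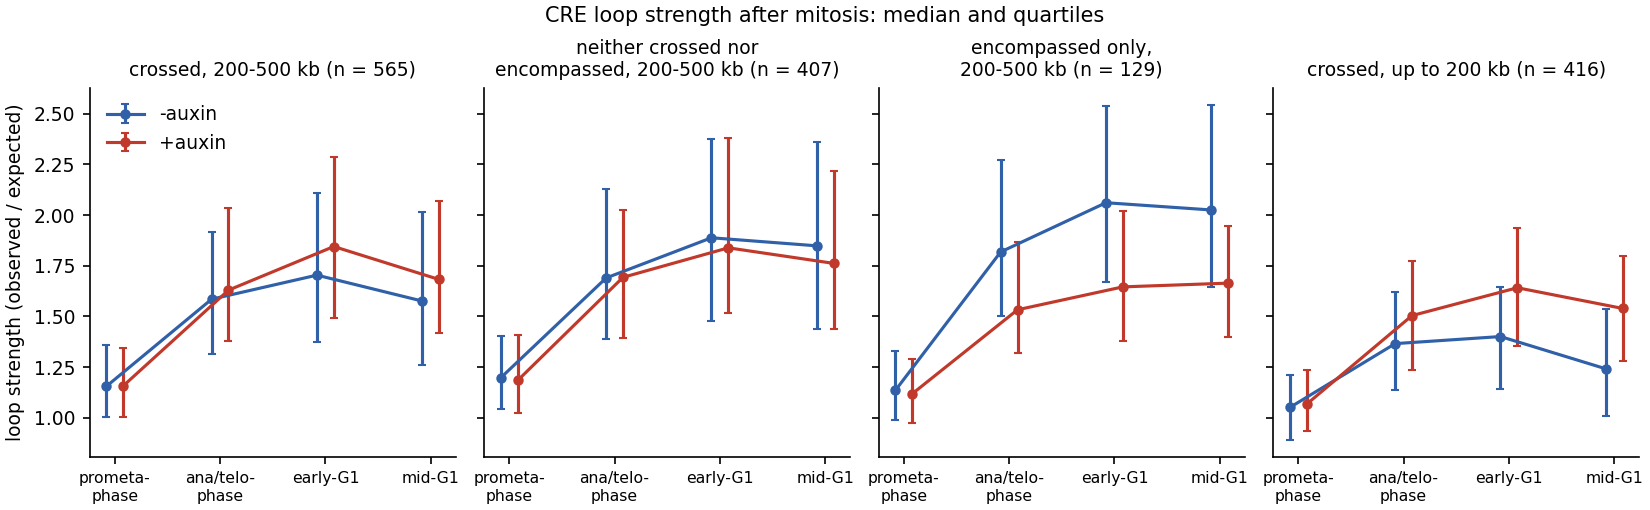
Median loop strength (observed over locally expected contacts, y axis) at 4 stages (x axis) in -auxin (blue) and +auxin (red) cells for 4 classes of CRE loops, with bars from the lower to the upper quartile of the loops. In the crossed loops of 200 to 500 kb the red medians of early-G1 (1.84) and mid-G1 (1.68) lie above the blue ones (1.70 and 1.58), in the encompassed loops they lie below, and the quartile ranges overlap in each class.

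The classes around them were ordered. CRE loops of the same size that were encompassed and not crossed (129 loops) went in the median from 2.03 in -auxin to 1.66 in +auxin mid-G1 cells, with a log2 change of -0.24 (SD 0.15). Those both crossed and encompassed (242 loops) had a change of 0.03 (SD 0.13). Shorter crossed loops, up to 200 kb (416 loops), went from 1.24 to 1.54, a change of 0.32 (SD 0.14). The longer crossed loops, at 0.14, lay between the last pair. At the size limits the medians on either side were 0.17 for 76 crossed loops of 210 to 230 kb and 0.28 (SD 0.24) for 65 of 180 to 200 kb, and 0.03 for 98 loops of 450 to 500 kb and 0.02 for 62 just above 500 kb.

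**Figure D2:**
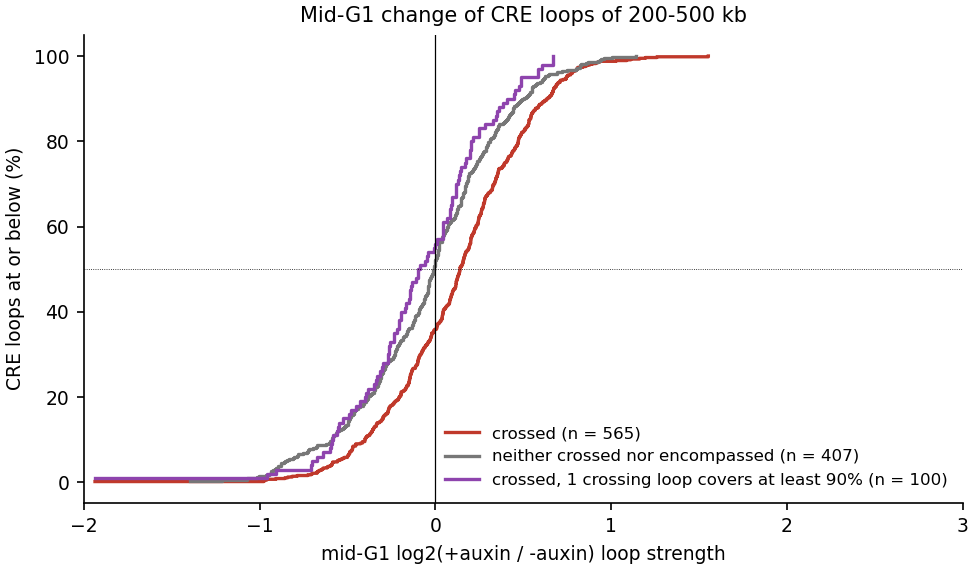
Cumulative share of CRE loops of 200 to 500 kb (y axis, %) by mid-G1 log2(+auxin / -auxin) of loop strength (x axis) for the crossed loops (red), the same-size loops neither crossed nor encompassed (grey), and the 100 crossed loops of which a single crossing loop covers at least 90% (purple). The red curve lies to the right of the grey one over most of its range and passes 50% at 0.14, against -0.01 for grey and -0.09 for purple.

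On single chromosomes the median mid-G1 change of the crossed loops ranged from 0.02 on chromosome 7 to 0.39 on chromosome X, where there were 8 loops. It was above 0 on 20 of 20 chromosomes, and above that of the uncrossed loops on 18 of 20. Chromosomes 2 and 15 were the exceptions, with 0.14 against 0.17 and 0.05 against 0.24.

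**Figure D3:**
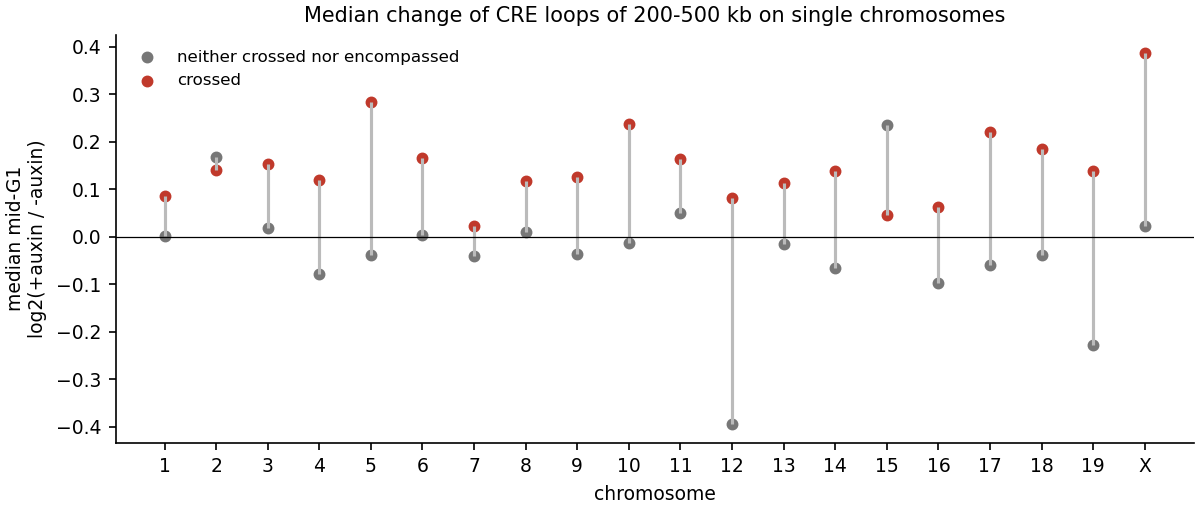
Median mid-G1 log2(+auxin / -auxin) of loop strength (y axis) on each chromosome (x axis) for the crossed CRE loops (red) and the same-size CRE loops neither crossed nor encompassed (grey), joined by a line. Each red point lies above 0, and only on chromosomes 2 and 15 does it lie below the grey point.

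Larger changes were also more often gains than losses. A mid-G1 log2 change of at least 0.5 was found in 100 crossed loops (17.7%, 14.6 to 21.1%), against 4.06% of all loops and 8.61% of the 778 other CRE loops of that size. A change of at most -0.5 was found in 34 (6.02%, 4.2 to 8.31%), against 42.0% of all loops and 14.4% of the other same-size CRE loops. Higher with auxin from ana/telophase to mid-G1 throughout were 247 loops (43.7%), where the backgrounds were 12.5% and 27.2%. Weaker at all 3 were 104 (18.4%), with backgrounds of 61.4% and 34.1%. The class thus holds loops of both directions. The change in mid-G1 ranked the loops much as that in early-G1 did (Spearman's rank correlation 0.73 over 565 loops from the same cultures, no test) and as that in ana/telophase did (rank correlation 0.56), but hardly as that in prometaphase did (rank correlation 0.07).

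By the authors' detection calls, 257 of the 565 (45.5%, 41.3 to 49.7%) were found with auxin alone, 117 (20.7%) with either treatment and 191 (33.8%, 29.9 to 37.9%) without auxin alone. Called in +auxin only were 14.6% of all loops and 29.9% of the other same-size CRE loops, and called in -auxin only were 71.1% and 47.2%. In the +auxin-only loops the median mid-G1 strength went from 1.31 to 1.65 with auxin, and the change was 0.35 (SD 0.10). A call and a strength come from the same maps, so these changes are partly fixed by the call. In the -auxin-only loops it went from 1.80 to 1.6, with a change of -0.15 (SD 0.12). Those called in both treatments, where the call favours neither, went from 1.74 to 1.96, a change of 0.12 (SD 0.13), which is less than its spread over chromosomes. Of the loops called in +auxin only, ana/telophase was the stage of first detection for 60, early-G1 for 164 and mid-G1 for 33. Loops with 25 kb summits were called in +auxin only more often (59.3%) than those with 10 kb summits (38.9%), whereas their median changes were 0.16 and 0.14.

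Over time, the crossed loops peaked early. The stage of highest strength was ana/telophase for 170, early-G1 for 267 and mid-G1 for 128 of them without auxin, and the numbers with auxin were 114, 322 and 129. Of the 170 that peaked in ana/telophase without auxin, 119 peaked later with auxin and 51 did not. Among all crossed loops, 20.2% peaked in ana/telophase with auxin and 30.1% without. Of the 114 that peaked then with auxin, 63 peaked later without it. The precision of single values is unknown, and how far it makes such shifts was not tested. Strength decreased at both steps, from ana/telophase to early-G1 and on to mid-G1, in 132 loops (23.4%) without auxin and in 79 (14.0%) with auxin. In the uncrossed loops of that size the shares were 13.0% and 11.1%, and over all loops 6.99% and 10.6%. The median log2 change from ana/telophase to mid-G1 was -0.01 without auxin (SD 0.06) and 0.05 with auxin (SD 0.07). With the change of all loops over the same interval subtracted, both values lay below 0, at -0.30 and -0.065. For the uncrossed loops it was 0.12 and 0.07 without that subtraction, and 75 and 71 of 407 were strongest in ana/telophase. By mid-G1, 40 crossed loops (7.08%) had a strength under 1 without auxin and 6 (1.06%) with auxin, against 4.18% and 0.737% of the uncrossed loops. This share was thus lower with auxin in both classes, whereas over all loops it was higher, at 4.95% without and 12.8% with auxin. A strength of at least 1.5 was reached by 312 (55.2%) and 380 (67.3%) of the crossed loops, against 69.8% and 69.5% of the uncrossed ones. Over all loops the shares were 73.1% and 43.1%.

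The position of the crossing anchor moved with the size of the change. The distance from the straddled CRE anchor to the nearest crossing anchor inside the loop, which the study calls s_i-min, had a median of 112.5 kb, with quartiles of 50 and 200 kb and a range of 2.5 to 450 kb. In the 146 loops with a crossing anchor within 50 kb, the median mid-G1 log2 change was 0.24 (SD 0.18 over chromosomes), or 0.25 without the 10 loops whose anchors overlap. It was 0.19 in 113 loops at 50 to 100 kb and 0.09 (SD 0.13) in 306 loops farther away. The order held in these 3 classes, but each difference was within the spread over chromosomes. The rank correlation between distance and change was -0.19 over the 565 loops. It describes loops that in part share crossing anchors and has no test.

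More crossing loops went with a larger change too. The median was 0.07 (SD 0.10) in the loops crossed once, 0.19 (SD 0.14) in those crossed 2 to 3 times and 0.26 (SD 0.23) in those crossed 4 times or more, with rank correlation 0.21. Distance and number are themselves related (rank correlation -0.41), and their parts were not separated. Loops crossed on both sides had 0.22 (SD 0.17), those crossed at the upstream anchor alone 0.14 and those crossed at the downstream anchor alone 0.12. The mid-G1 -auxin strength of the strongest crossing loop had a weaker relation, with rank correlation 0.11. Loop size had rank correlation -0.12.

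A further feature of the crossing, chosen after the values of single loops had been seen, was how much of the CRE loop the crossing loop covered. In 100 crossed loops, at least 1 structural loop began just inside and covered at least 90% of the length, so that it came close to encompassing the CRE loop. In mid-G1 their median strength was 1.89 in -auxin and 1.76 in +auxin cells, with a log2 change of -0.09 (SD 0.25), and 5 of them reached 0.5. The 255 loops covered by 50 to 90% had a change of 0.23 (SD 0.14) and the 210 covered by less than 50% had 0.15 (SD 0.14). Leaving out the 100 nearly covered loops raised the median of the remaining 465 to 0.19 (SD 0.11). The spread over chromosomes of the nearly covered loops exceeds the distance of their median from 0.

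**Figure D4:**
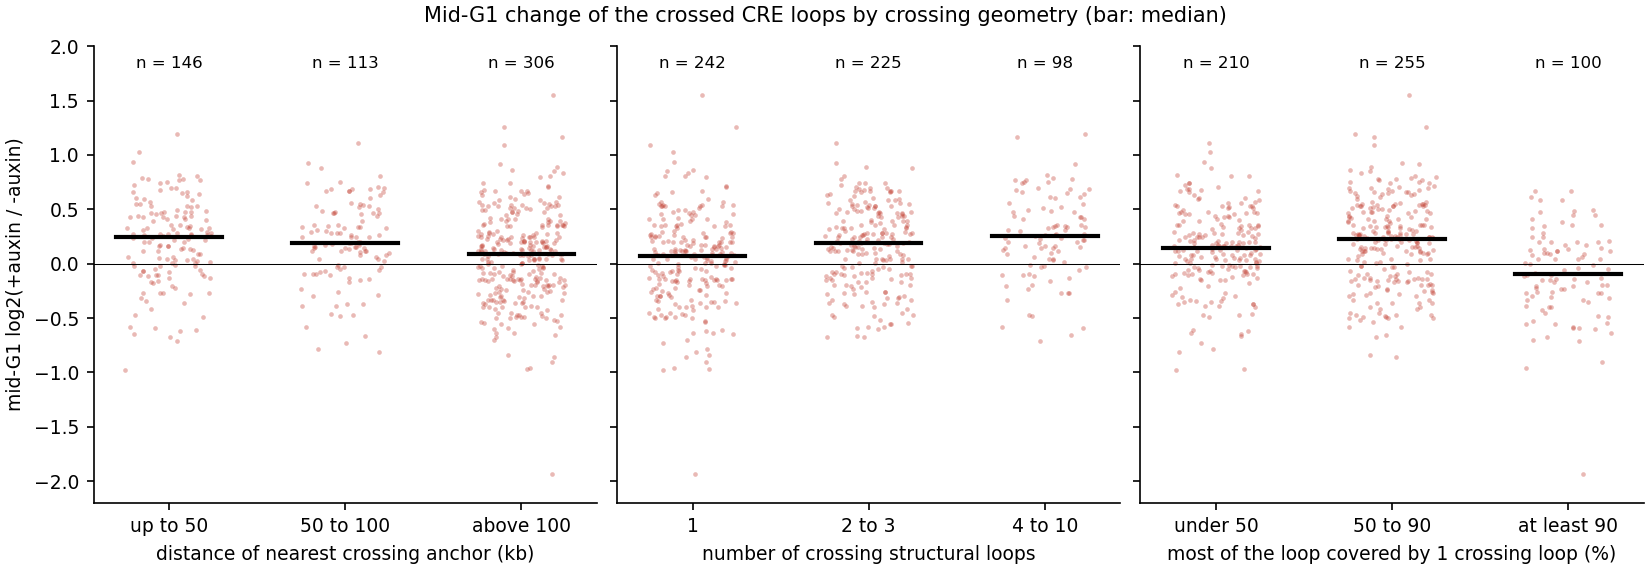
Mid-G1 log2(+auxin / -auxin) of loop strength (y axis) for each crossed CRE loop (points), by the distance of the nearest crossing anchor in kb, by the number of crossing structural loops, and by the largest share of the CRE loop that 1 crossing loop covers in %, with black bars at the medians and the number of loops above. The medians go from 0.24 to 0.09 with distance and from 0.07 to 0.26 with number, and only the loops covered by at least 90% have a median below 0 (-0.09), while the points of all classes overlap widely.

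Dual-function loops, which have CTCF and cohesin as well as CREs at both anchors, were not used to choose the class. They also crossed 287 of the 565 loops and encompassed 158. In the 229 loops that no dual-function loop crossed or encompassed, the median mid-G1 change was 0.12 (SD 0.16). Loops with an inward CTCF match at a crossing anchor (227 loops) had a median change of 0.20 (SD 0.13) and the other 338 had 0.09 (SD 0.11). Only crossing anchors 10 kb wide were searched, so the 338 include loops whose crossing anchors were all wider and were not searched. Loops crossed more often have more anchors in which to find a match, and this was not separated.

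Domain boundaries lay inside most of these loops and weakened with auxin. At least 1 boundary of the deposited table fell inside 459 of the 565 (81.2%, 77.8 to 84.4%), against 64.6% (59.8 to 69.3%) of the uncrossed and 45.0% (36.2 to 54.0%) of the encompassed loops of that size, while loops both crossed and encompassed had 76.4% (70.6 to 81.6%). A structural anchor inside the loop is part of the rule, so a high share is partly built in. Boundary strength, ΔIS, is the highest insulation score nearby minus that at the boundary. For the 495 distinct boundaries inside the crossed loops, its mid-G1 median was 0.884 without and 0.528 with auxin. The median log2 change of single boundaries was -0.67 (SD 0.17 over chromosomes), against -0.35 (SD 0.24) for boundaries inside uncrossed loops. It was -0.63 (SD 0.34) for those inside loops both crossed and encompassed, and -0.48 for all 6376 boundaries. The crossed class was thus close to the class that is both crossed and encompassed. By the authors' labels, 247 of the 495 (49.9%) belonged to cluster2, which holds 31.9% of all boundaries.

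The strongest boundary inside a crossed loop often lay near a crossing anchor. Its distance to the nearest such anchor had a median of 20.0 kb and was at most 20 kb in 240 of 459 loops (52.3%). Other positions and classes were not compared, and many loops hold several crossing anchors. In the 141 loops whose strongest boundary changed by a log2 of -1 or less in mid-G1, the median change of the loop itself was 0.24 (SD 0.18). In the 275 loops with a smaller loss at that boundary it was 0.12 (SD 0.13), and in the 43 loops where that boundary was not weaker it was 0.04 (SD 0.25). The rank correlation over the 459 loops was -0.12. Loops with and without a boundary inside differed little, with 0.15 and 0.12.

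Promoters were common at the anchors. By GENCODE vM1 on mm9, 290 of the 565 loops (51.3%, 47.1 to 55.5%) had a protein-coding transcription start at both anchors, 200 at 1 anchor and 75 at neither. Of the uncrossed loops, 44.0% (39.1 to 49.0%) had starts at both. The median mid-G1 change of the crossed loops was 0.16, 0.13 and 0.09 in that order, with SDs of 0.11, 0.20 and 0.21. The uncrossed loops gave 0.05, 0.00 and -0.27 (SD 0.25), so the gap between crossed and uncrossed loops was widest where no promoter was annotated at either anchor.

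Single loops show the pattern in the 8 maps. The 6 loops named first had the largest mid-G1 rise among 121 that were higher with auxin at each of the 3 stages after mitosis, reached a strength of 1.3 with auxin and differed by at most 0.3 (log2) in prometaphase.

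The largest was a loop of 230 kb on chromosome 10, from 41990001 to 42000000, which holds the start of Foxo3, a forkhead transcription factor active in red cell maturation, to 42220001 to 42230000, which holds that of Snx3, a sorting nexin that helps recycle the transferrin receptor. Its strength without auxin was 1.37, 2.1, 1.38 and 1.04. With auxin it was 1.66, 2.38, 2.62 and 2.39, a mid-G1 log2 change of 1.19. The loop was called in both treatments, and by mid-G1 it was near 1 in -auxin cells alone. It is crossed by 6 structural loops, and 3 of them end at 42010001 to 42020000, 20.0 kb inside, the anchor with the 3 printed Foxo3-Snx3 sites. The strongest of those 3, which starts at 41220001 to 41230000, went from 4.1 to 1.19 in mid-G1. The boundary at that same bin had a ΔIS of 1.08 in both treatments, so here the boundary did not weaken with the structural loop.

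The Plxnc1 loop has a single crossing anchor close by. It joins 94400001 to 94425000 on chromosome 10, which holds the start of Plxnc1, a semaphorin receptor, with 94725001 to 94750000 in an intron of Cradd, an adaptor protein with a death domain. Its strength was 1.32, 1.15, 1.05 and 0.844 from prometaphase to mid-G1 without auxin and 1.10, 1.58, 1.63 and 1.48 with auxin, a mid-G1 change of 0.81. The only crossing loop, from 94080001 to 94090000 and to 94420001 to 94430000, overlaps the edge of the CRE anchor, holds the printed Plxnc1-Cradd site and went from 3.76 to 1.06 in mid-G1. The boundary at 94430001 to 94440000 went from a ΔIS of 1.38 to 0.620.

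The Srp72 loop on chromosome 5 joins 77400001 to 77410000, at the start of Srp72, a subunit of the signal recognition particle, with 77700001 to 77710000, over an exon of Rest, a repressor of neuronal genes. In -auxin cells it stayed between 1.52 and 1.82 at all 4 stages. In +auxin cells it was 1.79, 1.89, 2.79 and 2.75, a mid-G1 change of 0.86. The crossing loop that ends 240 kb inside, with the printed Srp72-Rest site, went from 3.96 to 1.77.

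Another loop of chromosome 5 joins 122930001 to 122940000, over an exon of Atp2a2, a calcium pump of the endoplasmic reticulum, with 123240001 to 123250000, over an exon of Anapc5, a subunit of the anaphase-promoting complex. Its strength was already high in prometaphase, at 1.99 without and 2.41 with auxin. It went on to 1.89, 1.78 and 1.11 without auxin and to 2.76, 2.45 and 1.99 with auxin. The authors called the loop in +auxin cells only, first in ana/telophase. The treatments were farthest apart in mid-G1, with a change of 0.84.

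On chromosome 7, the loop from 52390001 to 52400000, at the starts of Flt3l, a cytokine gene, and Rpl13a, a ribosomal protein gene, to 52620001 to 52630000, at the starts of Lin7b and Ppfia3, went from 1.49 in prometaphase to 0.896 in mid-G1 without auxin and from 1.62 to 1.64 with auxin, with 2.29 in early-G1. The remaining loop, on chromosome 11 between an exon of Tex14 at 87280001 to 87290000 and 87560001 to 87570000, without a protein-coding gene, had mid-G1 strengths of 1.20 and 2.44. Its crossing loop is weak, with 0.660 without and 0.239 with auxin, and covers 17.9% of it.

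Losses were chosen in the mirrored way from 53 candidates, and 5 of the 6 largest are described. The largest fall was seen in a loop of 290 kb on chromosome 8 from 109210001 to 109220000, over an exon of Tmco7, to 109500001 to 109510000, over an exon of Sntb2, a syntrophin. Without auxin it went from 0.633 in prometaphase to 1.59, 2.74 and 3.04, and with auxin from 0.701 to 0.858, 1.21 and 0.795, a mid-G1 change of -1.94. Its only crossing loop begins 10 kb inside it, at 109220001 to 109230000, covers 96.6% of it and went from 4.84 to 1.63.

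Cover was also high in the loop on chromosome 3 between an exon of Wdr3 at 99950001 to 99960000 and 100350001 to 100360000, of which 90% is covered. It had mid-G1 strengths of 2.60 and 1.34, a change of -0.96. The loop on chromosome 1 from the start of Ikbke, a kinase of innate immune signalling, at 133170001 to 133180000 to 133480001 to 133490000 is covered by 87.1% and had 1.80 and 1.00, a change of -0.84.

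Of the other losses, the loop from BC017158 to the start of Inpp5f, an inositol phosphatase, on chromosome 7 went from 3.05 to 1.77 in mid-G1, although its crossing loop covers 14.6% of it. The loop from the start of Hnrpll, a splicing regulator, to Cdkl4 on chromosome 17 went from 2.82 to 1.79. High cover was not limited to losses. Among the rises, a crossing loop covered 87.0% of the Foxo3 loop, 81.5% of the Atp2a2 loop and 80% of the Srp72 loop.

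**Figure D5:**
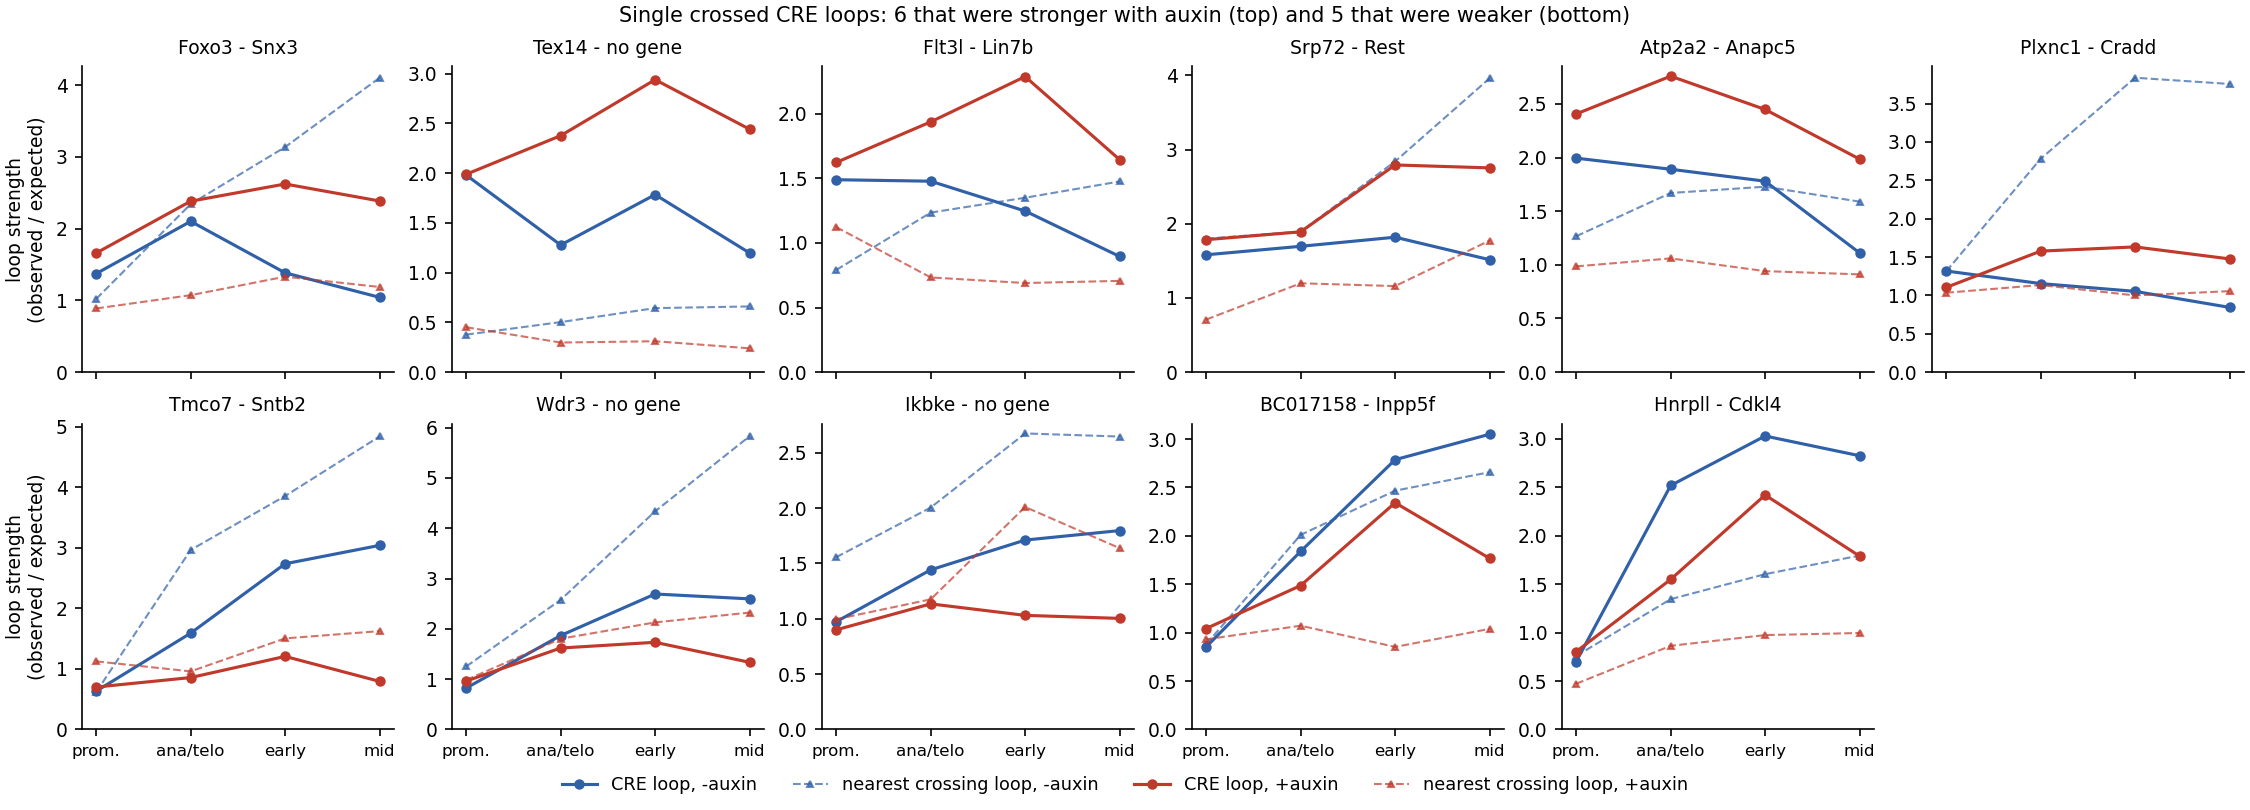
Loop strength (observed over locally expected contacts, y axis) at 4 stages (x axis) in -auxin (blue) and +auxin (red) cells for the 6 crossed CRE loops with the largest rises (top row) and 5 of the 6 with the largest falls (bottom row), each with its nearest crossing structural loop (dashed). Each panel has its own y axis from 0. At Foxo3-Snx3 the CRE loop ends at 2.39 with and 1.04 without auxin, and at Tmco7-Sntb2 at 0.795 and 3.04, while the dashed blue line ends above the dashed red one in each panel.

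Most of the heavily crossed loops were higher with auxin in mid-G1. The loop that ends at the start of Mef2d, a MADS box transcription factor, at 87940001 to 87950000 on chromosome 3 is crossed by 10 structural loops and had mid-G1 strengths of 0.830 and 1.41, a change of 0.77. The loop from Gtf3a, the gene of transcription factor IIIA, to Pan3, a subunit of a deadenylase, on chromosome 5 is crossed by 10 as well and had 0.826 and 1.18, a change of 0.52. Of 4 loops crossed by 9, the other three had mid-G1 changes of 0.13, 0.15 and 0.33. The fourth, which ends at Acbd6 on chromosome 1 and is covered by 96.4%, had 2.12 and 1.68, a change of -0.33, although in prometaphase it was higher with auxin, at 1.5 against 1.00.

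Where the crossing anchor lay closest, 2.5 kb from the CRE midpoint, the structural anchor falls within the 25 kb CRE bin. The loop between an exon of Pex7 and the start of Bclaf1 on chromosome 10 had mid-G1 strengths of 1.39 and 1.83, a change of 0.40. The loop from Tmtc2 to Ccdc59 on the same chromosome had 1.15 and 1.4, whereas that from Ddx56 and Tmed4 to Nacad on chromosome 11 had 1.18 and 1.17, a change of -0.01. At Slc16a12 on chromosome 19, where the distance is 7.5 kb, the values were 1.29 and 1.44.

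The strongest crossed loops were picked by their mid-G1 strength in -auxin or in +auxin cells. The direction of a change is thus partly set by the pick, and the changes went both ways. The Rasgrp2 and H2afj loops were picked in both treatments. Those of Sec16a and Rasa2 were picked in -auxin cells only and those of Lmo4 and Plod3 in +auxin cells only. The loop of 500 kb from the start of Rasgrp2, a Ras family exchange factor, to an exon of Rps6ka4, a kinase, on chromosome 19 had 4.04 in -auxin and 4.36 in +auxin mid-G1 cells. The loop that ends at the histone genes H2afj and Hist4h4 on chromosome 6 had 4.06 and 3.34, and its prometaphase values of 1.55 and 1.08 already differed in that direction. From the start of Sec16a, a protein of endoplasmic reticulum exit sites, to those of Med22, a Mediator subunit, and Rpl7a on chromosome 2, the values were 3.41 and 3.09. The loop from Rasa2, a Ras GTPase-activating protein, to Slc25a36 on chromosome 9 had 3.67 and 2.64. Its prometaphase values of 1.04 and 0.782 already differed in that direction, and it was called in +auxin cells only. On chromosome 3, the loop from Lmo4, a LIM-only protein, to Hs2st1 and Sep15 had 2.26 and 3.33, a change of 0.56, and on chromosome 5 the loop from Plod3 and Znhit1 to Ache, the acetylcholinesterase gene, and Ufsp1 had 3.01 and 3.19.

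Erythroid and regulatory genes were taken from a list of 73, of which 70 are in the annotation. At least 1 transcription start at an anchor of a crossed loop was found for 10 of the 70 (14.3%), against 878 of all 22232 protein-coding genes (3.95%). They belong to 12 loops, some of which share an anchor, and 11 of these had a mid-G1 change above 0, from 0.01 to 1.55. Most crossed loops as a whole were also stronger with auxin in mid-G1. The 14.3% was set against all genes and not against genes at anchors of other CRE loops. The list was drawn up with earlier results of these data known, so the counts are a description.

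Cdkn1b, the gene of the cell cycle inhibitor p27, on chromosome 6 at 134870001 to 134880000, had 3 crossed loops. The loop to the start of Lrp6, a Wnt co-receptor, at 134510001 to 134520000 was not enriched without auxin, with strengths of 0.946, 0.927, 0.890 and 0.852 from prometaphase to mid-G1. With auxin it had 1.00, 1.36, 1.35 and 1.44, a mid-G1 change of 0.76, while its nearest crossing loop went from 3.53 to 1.34 and the strongest boundary inside it from a ΔIS of 1.72 to 0.403. The loop to 8430419L09Rik on the other side went from 1.63 to 2.57 in mid-G1, and the loop to an intron of Lrp6 from 1.52 to 1.93. For these last loops the prometaphase changes, 0.69 and 0.50, were as large as or larger than the mid-G1 changes of 0.66 and 0.34.

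The promoter of Mcl1, an anti-apoptotic member of the BCL2 family, at 95460001 to 95470000 on chromosome 3 looped over 290 kb with 1.25, 1.74, 1.47 and 1.21 without auxin and with 1.36, 1.84, 2.11 and 1.88 with auxin, a mid-G1 change of 0.64. The boundary inside, at 95280001 to 95290000, went from a ΔIS of 1.02 to 0.396. Its nearest crossing loop was called in +auxin cells only and did not weaken, with 1.45 and 1.57.

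Ets2, an ETS transcription factor, looped to Psmg1 on chromosome 16 with mid-G1 strengths of 0.937 and 1.43, crossed by 8 structural loops. The loop from Cish, an inhibitor of cytokine signalling, to Hyal1, Hyal3 and Nat6 on chromosome 9 had 1.79 in ana/telophase and 1.07 in mid-G1 without auxin and 2.47 and 1.56 with auxin. For Socs3, of the same family as Cish, the mid-G1 change was 0.16, and for Slc11a2, an iron transporter, it was 0.19, in both cases below the prometaphase changes of 0.33 and 0.70. The loop from Mgea5 to Ldb1, a cofactor of erythroid transcription complexes, on chromosome 19 was equal in both treatments, at 2.21 and 2.23. The Ddit4 loop on chromosome 10, with the largest mid-G1 change of all 565 (1.55), already differed by 1.48 in prometaphase.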

How the data were processed

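In situ Hi-C libraries of 18 samples in 8 conditions were used, and 4 triptolide libraries were not. Per the labels the reads were aligned to mm9 with Bowtie2. The authors merged the replicates of each condition, called loops in 10 and 25 kb bins with an adapted HICCUPS, and called boundaries on balanced maps. Strengths of loops were deposited as the ratio of contacts at the summit to those its surroundings predict, and the deposited boundary strength (ΔIS) is a signal that is never negative. Categories, calls and boundary clusters are the authors' labels. Every value column was mapped to a condition. No filter was applied to strengths, and no crossed loop lacked a ratio.

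Crossing, covering and encompassing were decided from anchor midpoints. Chromosome medians need at least 3 loops for the SD. Boundaries were placed at the centre of their 10 kb bin. Named loops were the 6 largest rises and falls under the stated conditions, the 4 strongest with and without auxin, the 3 most crossed (ties by loop number), the 4 with the nearest crossing anchor and those with a listed gene. A loop chosen by this rule is not reported here. The members, gene list and comparisons were chosen with earlier results of these data known, and the consensus search and the split by cover after seeing values in these loops. The geometry was tested on simulated data. Python 3.11.15, numpy 2.4.6, pandas 2.3.3, scipy 1.17.1 and matplotlib 3.10.9 were used.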

Additional observations from a re-analysis of the deposited data

How the results depend on the processing

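Of 164 recomputed values under at most 12 alternatives per result, 149 stayed within their spread, interval or, for counts, 1.5 times the count. No value that exceeded its spread over chromosomes changed sign. Without centring, the median mid-G1 log2 change of the crossed loops ranged from 0.12 to 0.18, and its difference from the uncrossed loops from 0.13 to 0.18 under every alternative, with an SD between chromosomes of 0.13 to 0.23. That SD exceeded the difference with 10 kb summits alone (0.23) and with dual-function loops counted (0.20), among others. Subtracting the median change of all deposited loops between the same maps (-0.38 in mid-G1) moved most values. The medians became 0.52 in mid-G1, 0.46 in early-G1 and 0.29 in ana/telophase, 89.0% of loops were then stronger in mid-G1, 297 reached 0.5 and 5 reached -0.5, and the change from ana/telophase to mid-G1 became -0.30 without auxin and changed sign with auxin, from 0.05 to -0.065. Uncentred, its -auxin value of -0.01 also came to lie just above 0 under 2 alternatives, within its spread. Crossing loops changed by -0.55 on that scale, by -0.81 with a pseudocount of 0.25, by -1.11 where they had to reach a strength of 2, and by -0.75 with dual-function loops included. Boundaries inside changed by -0.48 with the pseudocount. With 10 kb summits alone, 38.9% were called in +auxin cells only and 38.6% in -auxin cells only. No paired analysis was possible because the loop and boundary tables used here hold 1 value per condition from merged replicates, so no replicate could be left out either, and maps of single replicates were not analysed here. Without contact counts, the precision of a single loop is unknown, and changes of single loops may lie within it.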
